A study of Mus musculus with 16 samples.

Results

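The 9 laminin chains examined here were encoded by the alpha chain genes *Lama1*, *Lama2*, *Lama3*, *Lama4* and *Lama5*, the beta chain genes *Lamb1*, *Lamb2* and *Lamb3*, and the gamma chain gene *Lamc1*, out of 52636 genes in the count table. The genes, and the pair of *Lama1* and *Lama5* that is set against the others, were chosen by measured values of these same libraries, so the values of the chains are given as a description and without p-values. RNA was sequenced from pancreatic islets of male mice, 12 weeks old, that were cultured for 10 days in medium with human serum. The strain is given as C57BL/6JRj in the labels and as C57BL/6NRj in the methods of the study. Control islets received no addition, and the other islets received 50 pg/mL of recombinant mouse IL-1β, 0.2 mM sodium butyrate, or both. There were 4 libraries for each of the 4 conditions, numbered 1 to 4. Every library held the RNA of 500 islets from several mice, so it stands for a pool and not for an animal. The study names 4 independent experiments, and whether libraries of the same number shared one is not stated.

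Laminins are large secreted proteins of basement membranes, the thin sheets of matrix on which epithelial and endothelial cells rest. Each laminin is a trimer of an alpha, a beta and a gamma chain, and the alpha chain carries the domains that bind cell surface receptors, among them integrins, dystroglycan and Bcam. In mouse islets a basement membrane surrounds the capillaries and touches the beta cells, and it is made largely by the endothelial cells. The cytokine IL-1β promotes inflammation and on long exposure impairs insulin secretion, and butyrate, a fatty acid that gut bacteria produce, inhibits histone deacetylases.

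The total count was 18635943 to 25955943 per library. CPM are counts per 1000000 scaled by edgeR's TMM method, the 3 counts taken as the detection floor corresponded to between 0.108 and 0.157 CPM per library, and such a floor covers counting error only. Libraries of a condition differed by more than counting error (chi-square per gene from 1.72 to 13.5, where counting error alone gives about 1), so no library was a copy of another. Islet identity was checked on 8 beta cell markers, including the insulin genes *Ins1* and *Ins2*, whose summed level was 213000 to 236000 CPM in control, 137000 to 178000 with IL-1β, 137000 to 169000 with IL-1β plus butyrate and 222000 to 261000 with butyrate. The 5 alpha cell markers summed to at least 18700 CPM in every library. For the 3 delta cell markers the sum was 1690 to 1990 CPM in control and 1740 to 2220 with IL-1β. It was 2620 to 3180 CPM with IL-1β plus butyrate and 2390 to 2770 with butyrate, most of it *Sst*. Markers of other cells were present, with no defining marker at 0 throughout a condition. Their sums per library lay between 6.1 CPM (fibroblast and stellate, IL-1β) and 815 CPM (duct, IL-1β plus butyrate). In bulk RNA, a smaller number of cells of a type and less RNA in each of them cannot be told apart.

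The genes lie apart in the genome (GRCm38, GENCODE M21). *Lama1* (ENSMUSG00000032796) is on chromosome 17 from 67697259 to 67822647 and *Lama5* (ENSMUSG00000015647) on chromosome 2 from 180176373 to 180225859. *Lama2* (ENSMUSG00000019899) and *Lama4* (ENSMUSG00000019846) are both on chromosome 10, from 26980036 to 27619758 and from 38965515 to 39110188. *Lamb1* (ENSMUSG00000002900) lies on chromosome 12 from 31265234 to 31329644, *Lamb2* (ENSMUSG00000052911) on chromosome 9 from 108479736 to 108490530 and *Lamb3* (ENSMUSG00000026639) on chromosome 1 from 193207699 to 193343878. *Lamc1* (ENSMUSG00000026478) is on chromosome 1 from 153218922 to 153332786. Antisense genes cover 3.86% of the exonic bases of *Lama2* and 1.83% of those of *Lama3*, and since the strand setting of the counting is not given in the sources used here, reads from both strands may have been added there. No exon of the other 7 chains is shared with another gene.

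RefSeq promoter windows of 250 bases before the start site (GRCm38.p6) were matched for 5 of the 9 chains. Those of *Lama5* and *Lamb3* are printed because these chains had the largest differences with butyrate and with IL-1β, respectively, without the bases that overlap an annotated exon. The *Lama5* sequence is chr2:180225905-180226109 on the minus strand, just upstream of the annotated gene, and the *Lamb3* sequence is chr1:193301744-193301992 on the plus strand, before a start site inside the annotated gene. Capitals mark GC boxes (GGGCGG on either strand), the sequence that Sp factors bind.
Lama5: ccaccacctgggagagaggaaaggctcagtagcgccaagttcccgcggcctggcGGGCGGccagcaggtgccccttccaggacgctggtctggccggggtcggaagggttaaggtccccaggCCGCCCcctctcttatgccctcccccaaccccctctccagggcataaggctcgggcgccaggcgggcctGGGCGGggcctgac
Lamb3: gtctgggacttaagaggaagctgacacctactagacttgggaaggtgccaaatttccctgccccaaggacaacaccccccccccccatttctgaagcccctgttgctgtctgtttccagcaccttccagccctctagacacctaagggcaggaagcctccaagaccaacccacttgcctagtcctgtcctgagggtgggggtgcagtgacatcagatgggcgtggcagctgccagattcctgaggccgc
The *Lama5* stretch held 3 GC boxes and its full window 4, with a GC content of 72.4% against a median of 52.4% over all 32851 windows. A GC box was found in 32.7% of all windows of this length. The *Lamb3* sequence held none, nor an AP-1 site (TGANTCA, in 6.75% of windows), a TATA box (TATAAA, in 12.4%) or a match to the NF-kB consensus (7.25%), on either strand. A second *Lamb3* window that follows directly downstream held 1 NF-kB match. That window begins at an annotated exon base, so it is not printed. The *Lamb1* window held 2 GC boxes, and those of *Lamb2* and *Lama2* held no match to any of the 4 motifs. These matches are letters in a window and not measured binding.

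*Lama1* and *Lama5* moved apart under the exposures. *Lama1*, an alpha chain best known from embryonic basement membranes, was high with IL-1β alone and low in the other conditions, whereas *Lama5*, the alpha chain of most adult epithelial and vascular basement membranes, was high in every library with butyrate. Among the beta and gamma chains, *Lamb3* had the largest difference with IL-1β, and *Lamc1*, the gamma chain of most laminins, stayed within a narrow range.

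The *Lama1* level in control islets was 1.26, 1.58, 1.15 and 1.33 CPM in replicates 1 to 4, from 24 to 38 counts. With IL-1β it was 13.5, 10.3, 9.64 and 9.53 CPM, and with IL-1β plus butyrate 2.8, 2.89, 1.53 and 2.31 CPM. With butyrate alone it was 1.1, 1.42, 1.2 and 1.46 CPM. The 4 IL-1β libraries were thus above all 12 others, the butyrate libraries overlapped the controls, and 3 of the 4 libraries with both agents were above every control while replicate 3 lay inside the control range. The log2 fold change of *Lama1* was 3.0 (SE 0.17) for IL-1β against control and -2.16 (SE 0.15) for IL-1β plus butyrate against IL-1β. For butyrate alone it was -0.03 (SE 0.22), with a 95% interval of -0.49 to 0.42. With both agents *Lama1* remained 0.84 (SE 0.20) above control and 0.87 (SE 0.20) above butyrate on the log2 scale. The last of these was no longer called without replicate 1 or replicate 2 of IL-1β plus butyrate.

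The *Lama5* level in control islets was 5.69, 5.8, 6.35 and 6.76 CPM. With IL-1β it was 4.29, 3.75, 4.41 and 5.23 CPM, so that every IL-1β library was below every control. With butyrate it was 21.1, 25.2, 20.6 and 25.2 CPM, and with both agents 24.4, 23.1, 23.2 and 26.8 CPM. All 8 libraries with butyrate stood far above all 8 without it, and those with and without IL-1β overlapped. The log2 fold change of *Lama5* was 1.91 (SE 0.09) for butyrate against control, 2.45 (SE 0.10) for IL-1β plus butyrate against IL-1β, and 1.98 (SE 0.09) for IL-1β plus butyrate against control. For IL-1β plus butyrate against butyrate it was 0.08 (SE 0.08), with a 95% interval of -0.08 to 0.24. IL-1β against control gave -0.46 (SE 0.11), a call that was lost without control replicate 4 and without IL-1β replicate 2.

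**Figure D1:**
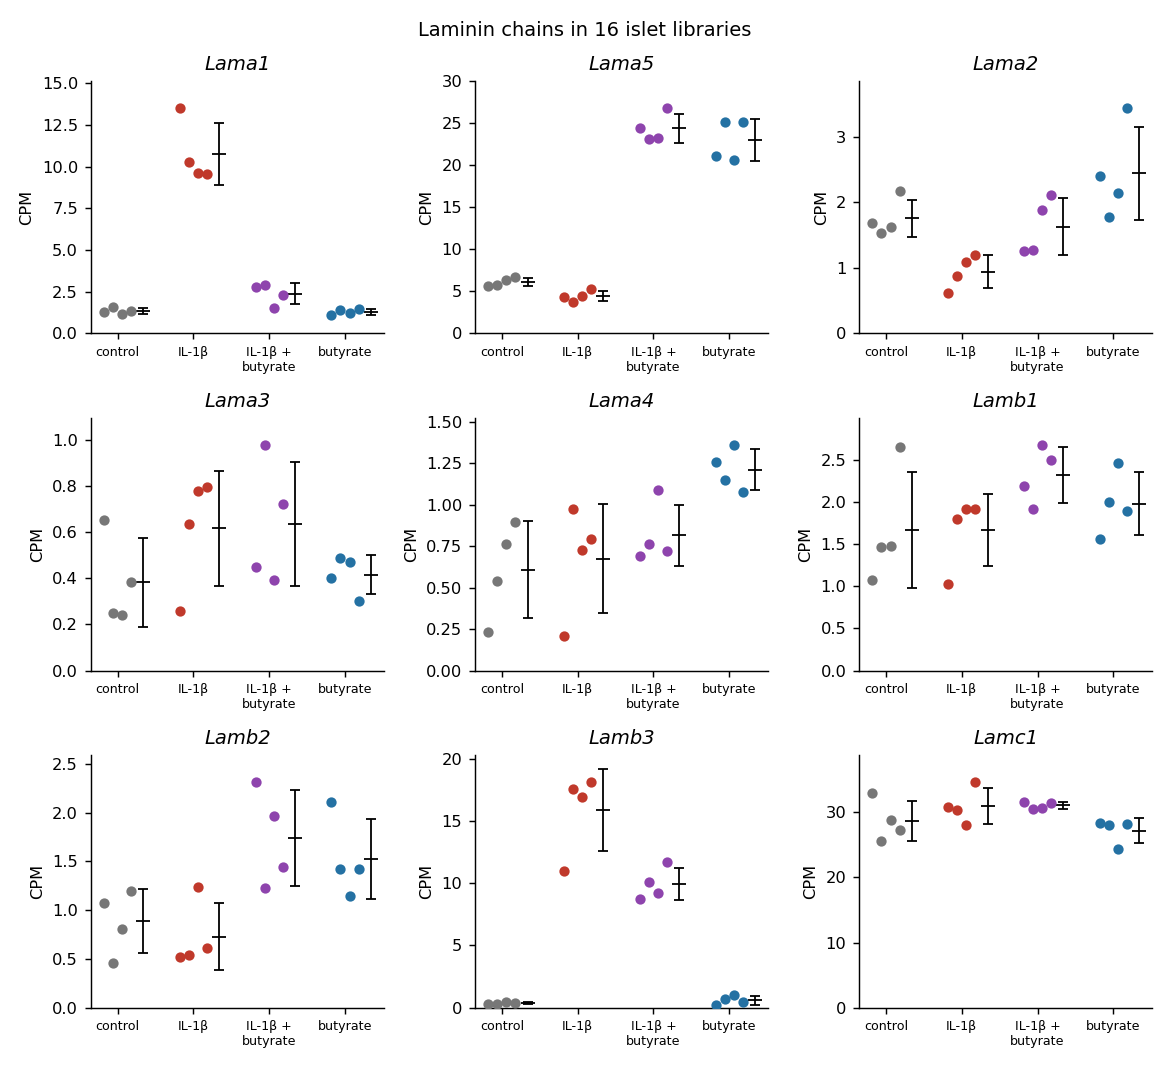
TMM-scaled CPM (vertical axis, linear and different for each gene) of the 9 laminin chains by condition; each point is 1 of the 4 libraries of a condition, in the order of the replicate numbers, and the bar to the right is the mean ± SD. *Lama1* lay between 9.53 and 13.5 CPM with IL-1β and at most at 2.89 CPM elsewhere, while *Lama5* lay between 20.6 and 26.8 CPM with butyrate and at most at 6.76 CPM without it.

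The other 3 alpha chains changed less. *Lama2*, the alpha chain of muscle and peripheral nerve basement membranes, was at 1.54 to 2.18 CPM in control, 0.62 to 1.19 with IL-1β, 1.26 to 2.12 with IL-1β plus butyrate and 1.78 to 3.44 with butyrate. Its IL-1β libraries did not overlap the controls, and the log2 fold change was -0.87 (SE 0.25). That call was lost in 16 of 25 alternative settings, including the omission of any 1 of the 4 control libraries. On the log2 scale *Lama2* with both agents was 0.75 (SE 0.25) above IL-1β, without overlap, and stood at -0.60 (SE 0.22) relative to butyrate. Neither was called, though both were with the replicate number as a block. *Lama4*, a chain of blood vessel basement membranes, was at 0.233 to 0.899 CPM in control and 1.08 to 1.36 with butyrate, which did not overlap. It was at 0.207 to 0.974 CPM with IL-1β and 0.69 to 1.09 with both agents, and its log2 fold change with butyrate was 0.97 (SE 0.33) and not called. *Lama3* (ENSMUSG00000024421, chromosome 18 from 12333819 to 12583013), the alpha chain of epidermal anchoring structures, had only 5 to 23 counts per library. Its level was 0.239 to 0.653 CPM in control, 0.259 to 0.794 with IL-1β, 0.394 to 0.976 with both and 0.301 to 0.489 with butyrate, all overlapping, and none of its log2 fold changes was called. For IL-1β against control its 95% interval was -0.08 to 1.52, so no difference was detectable at this depth.

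*Lamb3*, the beta chain that pairs with *Lama3* in the laminin of skin, was at 0.327, 0.292, 0.478 and 0.342 CPM in control islets, from 7 to 10 counts. With IL-1β it was at 11, 17.6, 16.9 and 18.1 CPM, and with IL-1β plus butyrate at 8.77, 10.1, 9.2 and 11.7 CPM. With butyrate alone it was at 0.201, 0.711, 0.993 and 0.473 CPM. The libraries with IL-1β were all above those without it, and IL-1β libraries overlapped those with both agents only through IL-1β replicate 1. The log2 fold change of *Lamb3* was 5.46 (SE 0.25) for IL-1β against control, 4.06 (SE 0.25) for IL-1β plus butyrate against butyrate and 4.78 (SE 0.27) for IL-1β plus butyrate against control. IL-1β plus butyrate was 0.68 (SE 0.15) lower than IL-1β on the log2 scale, with a 95% interval of -0.99 to -0.38. Without IL-1β replicate 1 this value was -0.84. *Lamb3* and *Lama1* were thus both higher with IL-1β, but with both agents *Lamb3* had a mean of 9.97 ± 1.3 CPM (SD, n = 4) against 15.9 ± 3.3 with IL-1β, and *Lama1* 2.38 ± 0.62 against 10.7 ± 1.9.

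*Lamb2*, the beta chain of the neuromuscular junction and the kidney filter, was at 1.07, 0.459, 0.812 and 1.2 CPM in control, 0.517, 0.536, 1.24 and 0.614 with IL-1β, 2.31, 1.23, 1.97 and 1.44 with both, and 2.11, 1.42, 1.15 and 1.42 with butyrate. The libraries with both agents lay above all controls, and of the IL-1β libraries only replicate 3 reached into their range. The log2 fold change was 1.28 (SE 0.30) for IL-1β plus butyrate against IL-1β, called except without IL-1β plus butyrate replicate 1. It was 0.98 (SE 0.29) for IL-1β plus butyrate against control, a call lost without control replicate 2 or 3 and without replicate 1 or 3 of IL-1β plus butyrate. *Lamb1*, the beta chain of most embryonic and many adult laminins, was at 1.07 to 2.65 CPM in control, 1.03 to 1.92 with IL-1β, 1.91 to 2.67 with both and 1.56 to 2.46 with butyrate. The ranges of all 4 conditions overlapped, and no log2 fold change was called. IL-1β against control gave 0.00 (SE 0.24). IL-1β plus butyrate against control gave 0.46 (SE 0.23), and 0.78, which was called, without control replicate 4.

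*Lamc1* had the most counts of the 9 chains, 466 to 958 per library. It was at 25.6 to 32.9 CPM in control, 28 to 34.6 with IL-1β, 30.5 to 31.6 with both and 24.3 to 28.3 with butyrate. Its log2 fold changes were 0.12 (95% interval -0.02 to 0.26) for IL-1β and -0.07 (-0.21 to 0.07) for butyrate, each against control, so that a change beyond 0.26 in either direction lay outside both intervals. IL-1β plus butyrate against butyrate gave 0.19 (95% interval 0.05 to 0.33), with ranges that did not overlap, and was called only with library size as the only scaling. *Lamc3*, a gamma chain that is not among the 9, was at 0.351 to 0.525 CPM on average and was not called in any comparison.

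All 9 chains passed the filter on low counts. A gene was called when its adjusted p from edgeR's quasi-likelihood test was under 0.01. With IL-1β against control 4 of the 9 chains were called, *Lama1* and *Lamb3* higher and *Lama5* and *Lama2* lower, where 17.8% of all 18587 genes tested were called. With butyrate against control 1 chain was called, *Lama5*, where 19.9% of all genes were called. With IL-1β plus butyrate against IL-1β 4 were called, *Lama5* and *Lamb2* higher and *Lama1* and *Lamb3* lower, beside 19.5% of all genes. With IL-1β plus butyrate against butyrate *Lamb3* and *Lama1* were called higher, beside 14.8% of all genes. With IL-1β plus butyrate against control *Lamb3*, *Lama5*, *Lamb2* and *Lama1* were called higher, beside 30.6% of all genes. These comparisons share libraries, and the chains were selected on the same values, so nothing is read from the counts. The median log2 fold change of the 9 chains was 0.12 with IL-1β and 0.48 with butyrate, against -0.03 and 0.01 over all genes.

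The 2 effects of butyrate, with and without IL-1β, differed for *Lama1*. Its log2 difference was -2.13 (SE 0.27), which made it the only one of the 9 chains called, beside 0.0968% of all genes, that is 18 genes. The chains were selected on these same values, so the call is given as a description. For *Lama5* the difference was 0.54 (SE 0.14) and for *Lamb3* -1.40 (SE 0.49), neither of them called. For the other 6 chains the difference lay between -0.72 (SE 0.47, *Lama4*) and 0.49 (SE 0.43, *Lamb2*).

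Among genes called in the same direction, *Lama5* had rank 23 of 1563 by log2 fold change for IL-1β plus butyrate against IL-1β and rank 45 of 1585 for butyrate against control. *Lama1* had rank 102 of 2087 for IL-1β against control and rank 34 of 2066 among genes lower with IL-1β plus butyrate than with IL-1β. *Lamb3* had rank 33 of 2087 with IL-1β, ahead of *Lama1*.

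**Figure D2:**
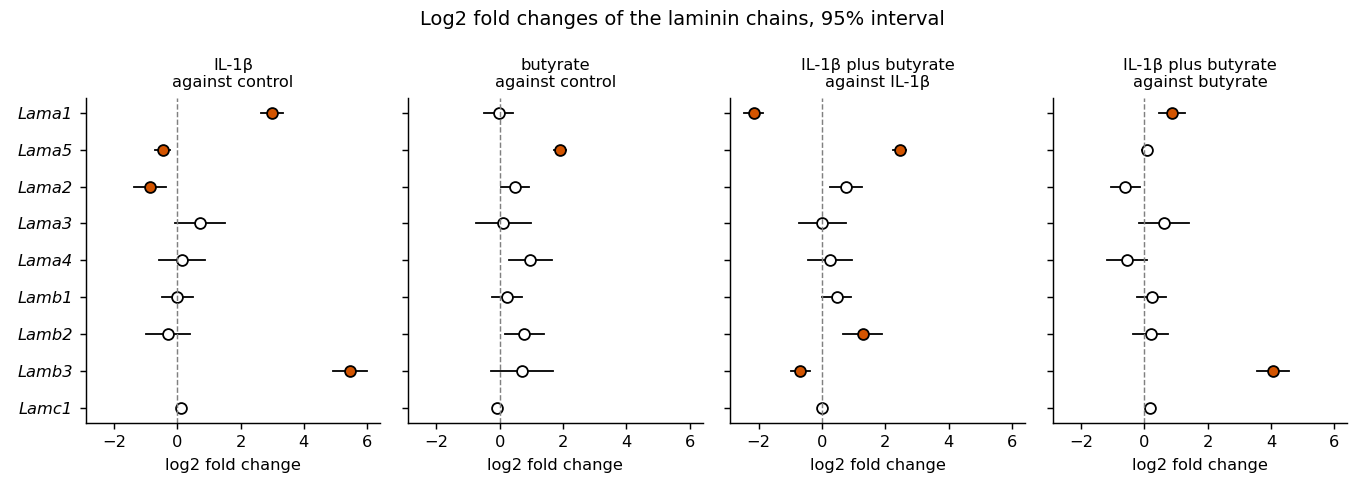
Log2 fold changes (horizontal axis) of the 9 laminin chains in 4 comparisons, with 95% intervals from the edgeR model; filled points were called at an adjusted p under 0.01 and open points were not. *Lama1* is at 3.0 with IL-1β and -2.16 when butyrate was added to IL-1β, and *Lama5* is at 1.91 with butyrate and 0.08 for IL-1β plus butyrate against butyrate.

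To compare levels between genes, CPM were divided by the length of each gene's exons in kilobases. In control islets *Lamc1* had the highest level, 3.46 ± 0.37 CPM per kb (SD, n = 4), followed by *Lama5* with 0.54 ± 0.044, and neither overlapped the next chain in the order. Below them came the chains from *Lamb1* with 0.168 ± 0.069 to *Lama3* with 0.0355 ± 0.018 CPM per kb, leaving out *Lamc3*. Each of these overlapped the next in the order, except *Lama2* (0.0944 to 0.134 CPM per kb), which lay wholly above *Lamb3* (0.0441 to 0.0723). With IL-1β the order was *Lamc1* (3.74 CPM per kb), *Lamb3* (2.41), *Lama1* (1.11) and *Lama5* (0.388), and no neighbours among these overlapped. With IL-1β plus butyrate it was *Lamc1* (3.76 CPM per kb), *Lama5* (2.14) and *Lamb3* (1.51), again without overlap. With butyrate it was *Lamc1* (3.29 CPM per kb) and *Lama5* (2.02), which did not overlap, followed by *Lamb2* (0.251) and *Lamb1* (0.199), which did. With the longest transcript as the length, *Lamb1* (0.342) stood above *Lamb2* (0.271) with butyrate, *Lamb3* (2.05) overlapped *Lama5* (2.14) with both agents, and *Lamb3* (3.27) overlapped *Lamc1* (4.06) with IL-1β. With either length *Lama1* was the highest alpha chain with IL-1β alone and *Lama5* in the other 3 conditions.

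Of the summed CPM per kb of the 5 alpha chains, *Lama5* made up 62.0 ± 1.8% in control, 23.3 ± 3.5% with IL-1β, 81.9 ± 1.8% with both and 82.6 ± 1.5% with butyrate (SD, n = 4). *Lama1* made up 15.9 ± 2.7%, 66.2 ± 6.9%, 9.4 ± 2.4% and 5.47 ± 0.28% in the same order. The shares of *Lama1* with IL-1β, 59.4% to 75.4%, did not overlap those of any other condition. The sum itself was 0.871 ± 0.072 CPM per kb in control, 1.67 ± 0.13 with IL-1β, 2.61 ± 0.17 with both and 2.44 ± 0.24 with butyrate. Of the beta chains *Lamb3* made up 15.4 ± 4.3% in control, 89.4 ± 1.9% with IL-1β, 74.2 ± 5.5% with both and 16.4 ± 8.5% with butyrate. These are shares of RNA and not of assembled trimers.

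**Figure D3:**
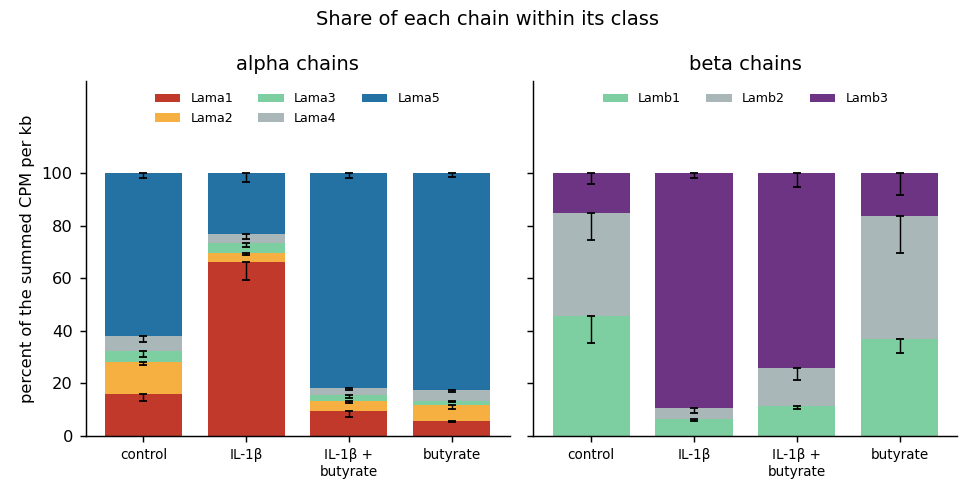
Mean share of each chain (percent of the summed CPM per kb of exon, vertical axis) within the alpha and the beta chains in the 4 conditions; error bars reach 1 SD over 4 libraries down from the top of each segment. *Lama1* takes 66.2% of the alpha chains with IL-1β and *Lama5* takes 81.9% and 82.6% in the conditions with butyrate.

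Across the 16 libraries, the chain whose log2 CPM followed *Lama1* most closely was *Lamb3* (Pearson's r = 0.80), and *Lama2* ran opposite to it (r = -0.83). *Lama5* was closest to *Lamb2* (r = 0.78) and *Lama2* (r = 0.62), and *Lama1* and *Lama5* had r = -0.56. Among 12679 other genes with an average log2 CPM of at least 1, those most like *Lama1* were *Tmtc1* (r = 0.949), *Pqlc3* (0.948), *Scarb2* (0.946), *Cyfip1* (0.943) and *Herc6* (0.938). Those most like *Lama5* were *Tmem145* and *Iglon5* (both r = 0.988), *Dact3* (0.985), *Tmem35a* (0.983) and *Sema4g* (0.982). The 16 libraries fall into 4 conditions, so these r describe the differences between conditions more than those within them.

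Of 12 receptors that bind laminin or act with those that do, 8 were higher and none lower with IL-1β (median log2 fold change 0.39), against 11.2% of all genes higher and 6.59% lower. DESeq2 gave the same numbers, and at an unadjusted p under 0.05 in edgeR 1 was lower. This list and those below were chosen with earlier results of these data known, so nothing is read from their counts. *Itga2*, an integrin subunit for collagen and laminin, had a log2 fold change of 1.72 (higher, SE 0.09, edgeR adjusted p = 1.3e-11). *Bcam*, which binds the alpha chain encoded by *Lama5*, was higher by 0.87 (SE 0.08, edgeR adjusted p = 1.4e-09) and the proteoglycan *Sdc4* by 0.76 (SE 0.10, edgeR adjusted p = 8e-06). With butyrate, 4 of the 12 were higher and 1 lower (median 0.16), against 8.53% and 11.4% of all genes. *Bcam* was higher by 0.80 (SE 0.08, edgeR adjusted p = 1.6e-08) and the integrin partner *Cd151* by 0.70 (SE 0.05, edgeR adjusted p = 2.9e-10), while *Itgb1*, the beta subunit of most laminin-binding integrins, was lower (log2 fold change -0.16, SE 0.04, edgeR adjusted p = 0.0063). *Bcam* was at 11.2 ± 0.46 CPM in control, 20.4 ± 2.2 with IL-1β, 19.5 ± 1.5 with butyrate and 31.6 ± 2.2 with both. Under both agents 5 receptors were higher and 1 lower than with IL-1β, against 8.41% and 11.1% of all genes. Compared with butyrate, 7 were higher with both agents (8 with DESeq2) and none lower, against 9.92% and 4.86% of all genes. *Dag1*, which encodes dystroglycan, was at 139 CPM in control, 140 with IL-1β and 134 with butyrate.

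Of 16 basement membrane partners of laminin, 15 were tested. With IL-1β 1 was higher and 3 were lower (median -0.17), against 11.2% and 6.59% of all genes, and DESeq2 called 4 lower. *Npnt*, a ligand of integrins, was higher by 0.45 (SE 0.07, edgeR adjusted p = 6.2e-05), and *Egflam*, a dystroglycan ligand, was lower (log2 fold change -1.40, SE 0.11, edgeR adjusted p = 8.1e-11). *Agrn*, or agrin, which binds laminin to dystroglycan, had -0.57 (SE 0.10, edgeR adjusted p = 8e-05), and the collagen IV chain *Col4a1* -0.46 (SE 0.08, edgeR adjusted p = 0.00018). With butyrate 3 were higher and 1 lower (median 0.16), against 8.53% and 11.4% of all genes, and DESeq2 called 2 higher and gave no adjusted p for 2. *Hspg2*, or perlecan, a heparan sulfate proteoglycan, was higher by 1.73 (SE 0.24, edgeR adjusted p = 1.1e-05), *Col4a5* by 1.38 (SE 0.33, edgeR adjusted p = 0.0022) and *Agrn* by 0.40 (SE 0.09, edgeR adjusted p = 0.0016), and *Egflam* was lower (log2 fold change -0.47, SE 0.10, edgeR adjusted p = 0.00063). *Hspg2*, *Agrn* and *Col4a5* were also higher with IL-1β plus butyrate than with IL-1β, by 1.61, 0.86 and 1.68, as was *Lama5*. The nidogens *Nid1* and *Nid2*, which link laminin to collagen IV, were not called with IL-1β (log2 fold change -1.07, SE 0.35, and 0.61, SE 0.42) or with butyrate (-0.17, SE 0.32, and 0.79, SE 0.41).

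**Figure D4:**
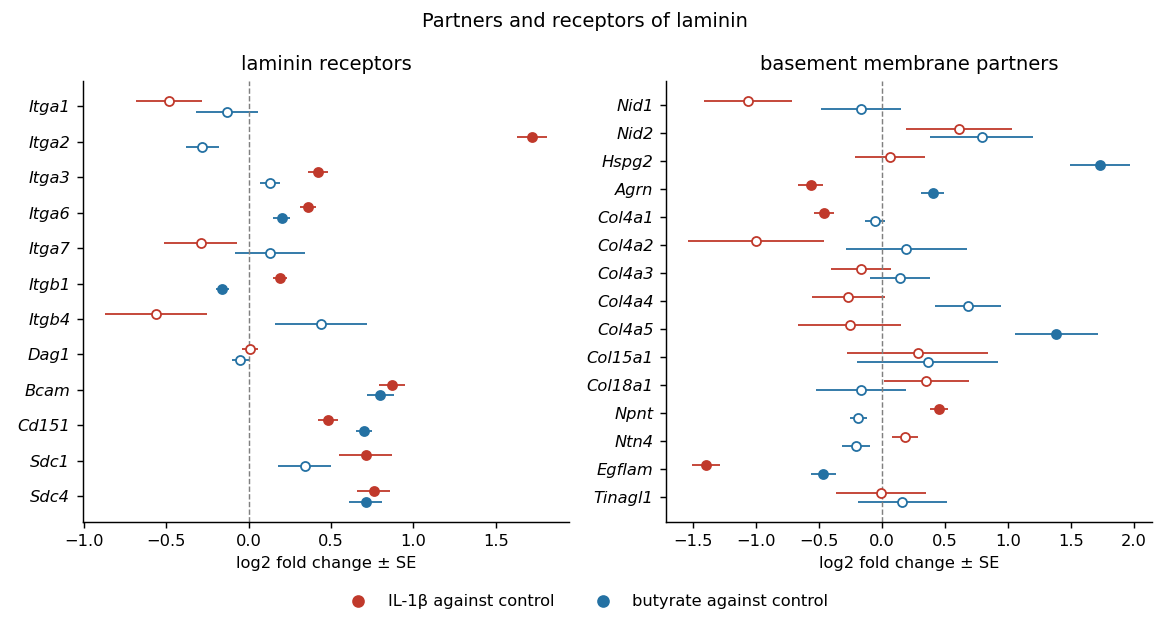
Log2 fold changes ± SE (horizontal axis) of 12 laminin receptors and 15 basement membrane partners for IL-1β (red) and butyrate (blue), each against control; filled points had an edgeR adjusted p under 0.01. *Itga2* is at 1.72 with IL-1β, *Egflam* at -1.40 with IL-1β and *Hspg2* at 1.73 with butyrate.

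Of 12 enzymes that build the sugar chain by which dystroglycan holds laminin, 5 were lower and 0 higher with butyrate (median -0.13), against 11.4% and 8.53% of all genes. DESeq2 gave the same numbers, and edgeR gave 6 lower and 2 higher at an unadjusted p under 0.05. These included *Pomgnt1* (log2 fold change -0.37, SE 0.04, edgeR adjusted p = 3.8e-07), *Pomgnt2* (-0.33, SE 0.05, edgeR adjusted p = 7.5e-06) and *Large2* (-0.23, SE 0.05, edgeR adjusted p = 0.00038). With IL-1β 1 was higher, *Rxylt1* (0.24, SE 0.07, edgeR adjusted p = 0.0081), and 1 lower, *Large2* (-0.42, SE 0.05, edgeR adjusted p = 6.9e-08), against 11.2% and 6.59% of all genes. Of 11 proteins that link laminin receptors to the cytoskeleton, 10 were tested (median 0.01 with IL-1β and -0.09 with butyrate). With IL-1β *Vcl* was higher (0.64, SE 0.08, edgeR adjusted p = 1.3e-06) and *Dmd*, *Utrn* and *Tln2* were lower, with log2 fold changes of -0.53, -0.43 and -0.41, beside the same shares of all genes. With butyrate *Pxn* was the only one called, higher by 0.27 (SE 0.06, edgeR adjusted p = 0.0021). *Pxn*, *Vcl* and *Tln2* encode proteins of focal adhesions, and *Dmd* and *Utrn* encode dystrophin and its relative utrophin, which tie dystroglycan to actin.

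Markers of other cells that carry basement membranes are given beside the chains. The summed delta cell markers, given above, were higher in every library with butyrate than in any without it, as was *Lama5*. With butyrate 1 of these 3 markers was called higher and 0 lower (median 0.25), against 8.53% and 11.4% of all genes. Beside *Lama5*, the 8 endothelial markers summed to 13.4 to 14.9 CPM in control, 10.9 to 16.2 with IL-1β, 16.2 to 20.6 with both and 16.7 to 18.5 with butyrate. Of the 7 tested, none was called by edgeR with butyrate (median log2 fold change 0.38), though 4 were higher at an unadjusted p under 0.05, and DESeq2 called none and gave no adjusted p for 4. *Esam* was the largest part of the mean sum in every condition, with means of 8.03 CPM in control and 9.56 with butyrate. *Pecam1* had means of 2.08 CPM in control, 3.92 with IL-1β, 3.88 with both and 1.97 with butyrate. The 4 mesothelial markers summed to 39.9 to 62.8 CPM in control, 42.2 to 51.8 with IL-1β, 12.3 to 15.7 with both and 12.5 to 14.3 with butyrate, and most of the sum was *Msln* in every condition. *Msln* had a mean of 43 CPM in control and 10.2 with butyrate (log2 fold change -2.08, SE 0.18, edgeR adjusted p = 1.2e-06) and was the only one of 3 tested that was called (median -0.16). *Wt1* had means of 2.06 and 1.99 CPM and *Upk3b* of 0.802 and 0.714 CPM in the same conditions. Beside *Lama2*, the 8 fibroblast and stellate markers summed to 9.47 to 18.1 CPM in control and 6.1 to 15.2 with IL-1β. Of these 8, none was called higher and 1 lower with IL-1β (median 0.07), against 11.2% and 6.59% of all genes. The lower gene was *Pdgfrb* (log2 fold change -1.57, SE 0.35, edgeR adjusted p = 0.001), while *Dcn* had means of 0.225 CPM in control and 0.481 with IL-1β. The 5 Schwann cell markers summed to 12 to 15.6 CPM in control and 9.1 to 11.4 with IL-1β, with none of 4 tested called by edgeR or DESeq2 and 3 lower at an unadjusted p under 0.05.

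Beside *Lama1* and *Lamb3*, the 6 duct markers summed to 341 to 368 CPM in control, 502 to 600 with IL-1β, 517 to 815 with both and 328 to 368 with butyrate. With IL-1β 3 of the 5 tested were higher and none lower (median 0.74), against 11.2% and 6.59% of all genes. *Krt7* was most of the sum in control (mean 336 CPM), and *Spp1* had means of 11.9 CPM there and 158 with IL-1β. *Sox9* (means of 2.04 CPM in control and 1.81 with IL-1β) and *Krt19* (1.43 and 2.39) were not called. *Spp1*, which other cells also make, was higher by 3.74 (SE 0.38, edgeR adjusted p = 7.4e-06), *Muc1* by 1.93 (SE 0.17, edgeR adjusted p = 5.8e-10) and *Krt7* by 0.23 (SE 0.05, edgeR adjusted p = 0.00085). *Muc1* had means of 0.901 CPM in control, 3.43 with IL-1β, 3.13 with both and 1.33 with butyrate. The 6 macrophage markers summed to 113 to 133 CPM in control, 128 to 138 with IL-1β, 75.6 to 88.6 with both and 73.7 to 98.1 with butyrate, and *C1qa* was the largest part of the sum in every condition, with a mean of 111 CPM in control and 51.2 with both. *C1qa* was lower and the other 5 markers were higher with IL-1β than in control (median 2.13), against 6.59% and 11.2% of all genes. After both agents 4 of the 6 were lower and none higher than with IL-1β (median -0.68), against 11.1% and 8.41% of all genes. Compared with control, 3 were higher and 1 lower (median 1.38), or 4 higher with DESeq2, against 15.8% and 14.8% of all genes. The 6 acinar markers summed to 18.6 to 29.9 CPM in control, 18.7 to 24.1 with IL-1β, 8.47 to 15.7 with both and 13.6 to 19.7 with butyrate. *Cela1* was the largest part of the mean sum in every condition, with means of 22, 14.5, 8.06 and 15.1 CPM in the same order. Of the 3 tested, 1 was higher and none lower with IL-1β (median 2.20), against 11.2% and 6.59% of all genes. DESeq2 also called 1 lower. The one higher was *Ctrb1*, with means of 0.589 CPM in control, 5.66 with IL-1β, 1.48 with both and 0.67 with butyrate. IL-1β against control gave a log2 fold change of 3.31 for it (SE 0.82, edgeR adjusted p = 0.0088), and adding butyrate to IL-1β gave -1.96 (SE 0.70, edgeR adjusted p = 0.051). The part of these cells in the values of the laminin chains was not tested.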

How the data were processed

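The authors prepared single-end libraries from islet RNA, mapped the reads with STAR 2.5.3a to GRCm38.p5, per the submitters' processing notes, and deposited whole-number read counts per gene without normalization. The annotation release and the strand setting are not given in the sources used here. The table held 52636 genes, 10560 without a count, and 0 columns of other samples. Symbols came from GENCODE M21, which held 52489 of the identifiers, and promoter windows from RefSeq.

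Genes with low counts were filtered with edgeR 4.0.16 in R 4.3.3 (filterByExpr, leaving 18587), and edgeR scaled the rest by TMM and fitted a robust quasi-likelihood model with the 4 conditions to all 16 libraries, without a block. P-values were adjusted by Benjamini-Hochberg over all genes tested, and 6 comparisons were made. Length-scaled levels used the union of a gene's exons, and correlations used log2 CPM with a prior count of 2. The procedure was tested on simulated data. The pairing of libraries by replicate number is not stated, and it was tried as an alternative, as were DESeq2 1.42.0, other scalings and filters, a threshold of 0.05 and leaving out each library.

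The chains, and the lists of partners, receptors, enzymes, linkers and markers, were chosen with earlier results of these data known. The genes named are the 9 chains, in each list at most the 3 called with the largest change in each direction, and the 5 genes most like *Lama1* or *Lama5*. *Dag1*, *Nid1*, *Nid2*, *Wt1*, *Upk3b*, *Dcn*, *Sox9*, *Krt19*, *Esam* and *Pecam1* were added after their values were seen. Nothing in the labels says that replicates came from separate animals, and p-values measure only the spread between these pooled samples. Some genes of the lists are not reported here.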

Additional observations from a re-analysis of the deposited data

Results flagged for a closer look

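Of the 36 groups of 4 libraries (9 chains in 4 conditions), 4 had a library that stood apart from the other 3, where chance marks about 1 in 20 groups. *Lamb1* was at 1.03 CPM in IL-1β replicate 1 against 1.8 to 1.92 in the others, and *Lamb3* was at 11 CPM in the same library against 16.9 to 18.1. *Lamb2* was at 1.24 CPM in IL-1β replicate 3 against 0.517 to 0.614. *Lamc1* was at 24.3 CPM in butyrate replicate 3 against 28 to 28.3.

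The butyrate effect on *Lama1* differed between islets with and without IL-1β. The log2 fold change was -2.16 in the presence of IL-1β and -0.03 in its absence, a difference of -2.13 (SE 0.27, 95% interval -2.69 to -1.57) that was called by edgeR. *Lama1* was chosen by values of these same libraries, so the call is given as a description.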

How the results depend on the processing

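No value changed direction among the called ones, and of 1334 recomputed values of single chains 1295 kept their side of the threshold, 27 lost a call and 12 gained one. The number of chains called with IL-1β against control was 4, and 2 with library size as the only scaling and with only the libraries compared (*Lama5* and *Lama2* were no longer called). With butyrate against control it was 1, and 3 at an adjusted p under 0.05. For the difference between the butyrate effects it was 1, and 3 with no filter on low counts, where *Lama5* and *Lamb3* were added. Leaving out 1 library at a time gave 2 to 4 chains for IL-1β against control (2 without control replicate 4 or IL-1β replicate 2), 1 to 2 for butyrate against control (2 without IL-1β replicate 1) 1 to 2 for IL-1β plus butyrate against butyrate (1 without replicate 1 or 2 of the combination), 3 to 4 for IL-1β plus butyrate against IL-1β and 3 to 5 for IL-1β plus butyrate against control (5 without control replicate 4, which added *Lamb1*). The cause was not tested.

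With the replicate number as a block, 2 chains were called with butyrate against control (*Lama5* and *Lama4*) and 2 for the difference between the butyrate effects (*Lama1* and *Lama5*). The block added *Lama2* for IL-1β plus butyrate against IL-1β (5 chains) and against butyrate (3 chains), while the genes called for that difference went from 18 to 132. They were 52 with DESeq2, 95 with no filter, 39 at an adjusted p under 0.05 and 11 without butyrate replicate 1. At an adjusted p under 0.05 the genes called for IL-1β plus butyrate against IL-1β went from 3629 to 5595. Libraries with the same number had correlated deviations from their condition means of 0.0535 to 0.397 (median 0.118), against a median of -0.0404 for other pairs. Deviations from a condition mean cancel out within the condition, so the negative median follows from the positive one and adds nothing to it. Of the 16 libraries, 14 correlated best with those of their own number. The sample numbers in the names of the count columns also ran through all conditions of a replicate number before the next. This order and the correlations hint at a pairing that the labels do not state.

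With the longest transcript in place of the exon union, the control level of *Lama2* moved to 0.183 CPM per kb, above *Lamb2* (0.157) and *Lama1* (0.14), that of *Lama4* to 0.101 and that of *Lamb1* to 0.288. Depth limits the chains at few counts, *Lama3* above all.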
